A study of Homo sapiens with 24 samples.

Results

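Claudins and their tight junction partners were followed here through the response of T-47D cells to heregulin. The genes were CLDN1, CLDN3, CLDN4, CLDN7, CLDN8, CLDN12, OCLN, TJP1 and F11R, and a gene was measured where the array annotation paired a probe set with its symbol alone. By this rule 7 of the 9 genes had a value, among 18374 genes with such a probe set, and each of the 7 had 1 probe set. The probe set for OCLN is also paired with OCLNP1, an OCLN pseudogene, so its values are given beside the members as those of the OCLN and OCLNP1 probe set and are left out of every count of members. That choice was made after its values were seen. F11R was not listed in the annotation used here and is not analysed.

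T-47D is a breast cancer line of luminal type that carries the estrogen receptor. Heregulin (HRG) is a growth factor that binds the receptors ErbB3 and ErbB4. P-Rex1 is an exchange factor that activates the small GTPase Rac. RNA was measured in 24 arrays, with 3 biological replicates in each of 8 groups. The groups were parental cells (no RNAi), cells transfected with a non-target control duplex (NTC), and cells transfected with P-Rex1 RNAi duplex #1 or duplex #2, all serum starved. Each kind of cell was exposed for 6 h either to HRG (20 ng/ml) or to PBS as the vehicle. Silencing was transient, and parental cells had no transfection. The design asks which transcripts respond to HRG, and which of these responses differ when P-Rex1 is silenced.

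Tight junctions seal the space between neighbouring epithelial cells at their apical border. Claudins are membrane proteins with 4 transmembrane stretches whose outer loops join across cells and set which ions pass, while occludin (OCLN) and junctional adhesion molecule A (F11R) are further membrane partners. TJP1, also called ZO-1, is the cytoplasmic scaffold that ties these proteins to actin. In luminal breast epithelium CLDN3, CLDN4 and CLDN7 are typical members, and loss of claudins marks a group of mesenchymal-like breast tumors.

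Known regulators of junction genes read short motifs in promoters, so the windows that held 2 or more copies of 1 such motif are shown first. They belong to CLDN7 and CLDN4, which were higher with HRG, and to OCLN, whose probe set, shared with OCLNP1, was higher. The repressors of the SNAI and ZEB families bind CACCTG, grainyhead-like factors bind AACCNGTT and TEAD factors bind GGAATG. Activator protein 1 binds TGACTCA or TGAGTCA, and TGANTCA, with any base at N, was searched as a looser form of this site. RefSeq windows of 300 bases around annotated start sites (build GRCh38.p14) were found for 7 of the 9 genes in the table at hand (not CLDN8 and F11R), 12 windows in all. The sequences run 5′ to 3′ along the gene, and capitals mark the motif found, read on either strand (CACCTG appears as CAGGTG on the other strand). CLDN7 is shown at chr17:7262429-7262728 (minus strand), OCLN at chr5:69492540-69492839 (plus strand) and CLDN4 at chr7:73830746-73831045 (plus strand).
CLDN7: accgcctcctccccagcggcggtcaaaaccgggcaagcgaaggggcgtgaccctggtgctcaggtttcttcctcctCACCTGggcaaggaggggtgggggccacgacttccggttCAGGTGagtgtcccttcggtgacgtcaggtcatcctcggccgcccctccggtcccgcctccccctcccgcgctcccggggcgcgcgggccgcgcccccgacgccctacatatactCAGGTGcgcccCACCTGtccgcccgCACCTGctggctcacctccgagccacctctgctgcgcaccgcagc
OCLN: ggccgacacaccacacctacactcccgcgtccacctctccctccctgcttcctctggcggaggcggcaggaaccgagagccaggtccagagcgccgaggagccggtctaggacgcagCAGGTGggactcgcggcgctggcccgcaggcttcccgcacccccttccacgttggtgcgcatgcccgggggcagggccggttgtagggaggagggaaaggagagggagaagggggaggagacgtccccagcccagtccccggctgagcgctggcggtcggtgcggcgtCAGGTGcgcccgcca
CLDN4: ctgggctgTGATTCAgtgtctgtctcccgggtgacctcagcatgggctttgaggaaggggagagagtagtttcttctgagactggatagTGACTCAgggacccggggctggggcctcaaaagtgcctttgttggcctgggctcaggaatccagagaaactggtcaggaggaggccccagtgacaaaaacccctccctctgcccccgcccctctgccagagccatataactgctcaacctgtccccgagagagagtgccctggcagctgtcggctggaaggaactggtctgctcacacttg

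This CLDN7 window held 5 copies of CACCTG, at positions -174, -135, -20, -9 and 5 from the start site (negative values are upstream), whereas the window at the other annotated CLDN7 start held 0. The OCLN window held 2 copies, at -133 and 35, and the other OCLN window held 1. At least 1 copy of CACCTG was present in 20.6% of all 35116 promoter windows of this length, and the share with 2 or more copies was not computed. The CLDN4 window held no CACCTG but 2 copies of TGANTCA, at -242 and -161, a motif present at least once in 7.71% of all windows. The copy at -242 reads TGATTCA and matches the looser form only, while that at -161 reads TGACTCA. CLDN3 and the first of 4 TJP1 windows each held 1 CACCTG, and the windows of CLDN1 and CLDN12 held none of the 4 motifs. AACCNGTT (1.73% of all windows) and GGAATG (14.03%) were found in 0 of the 12 windows. A match is only a run of letters, and binding was not measured.

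Values are log2 expression normalized by the authors with Robust Multichip Average (RMA), so that a difference of 1 is a 2-fold difference. Array medians lay between 6.04 and 6.18, and the 25% quantile of an array between 4.27 and 4.43. Each difference was tested with limma over all 24 arrays and 21042 probe sets. A gene was called, and is said to have risen or fallen, at an adjusted p under 0.05 with a fold change over 1.5. All 12 luminal epithelial markers lay above the array median on every array, against 1 of 8 fibroblast, 0 of 7 endothelial and 0 of 7 leukocyte markers. Silencing was visible in the PREX1 probe set: without HRG, the 6 control arrays read 10.36 to 10.63 and the 6 RNAi arrays 8.91 to 9.09. With HRG the control arrays read 9.30 to 9.64 and the RNAi arrays 8.45 to 8.83, so the groups did not overlap. Centring each array on its median moved the share of higher calls over all probe sets from 43.9% to 33.6% for HRG in NTC cells and from 68.6% to 81.0% for HRG with duplex #1.

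With HRG, CLDN7 rose and CLDN8 fell in parental and in NTC cells, while CLDN4, CLDN1 and TJP1 were higher by less than 1.5-fold and CLDN3 and CLDN12 passed no test in either. In parental cells 1 of the 7 members was called higher, beside 2.86% of all probe sets tested, and 1 was called lower, beside 2.41%. In NTC cells the counts were again 1 higher and 1 lower, beside 2.64% and 3.37%. Without the fold threshold 4 of 7 members were higher in parental cells (13.5% of all probe sets) and 4 of 7 in NTC cells (13.6%), and CLDN8 alone was lower in each (17.3% and 17.6%). The median log2 difference of the members was 0.30 in parental cells, against -0.03 over all probe sets tested, and 0.25 in NTC cells, against 0.03.

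**Figure D1:**
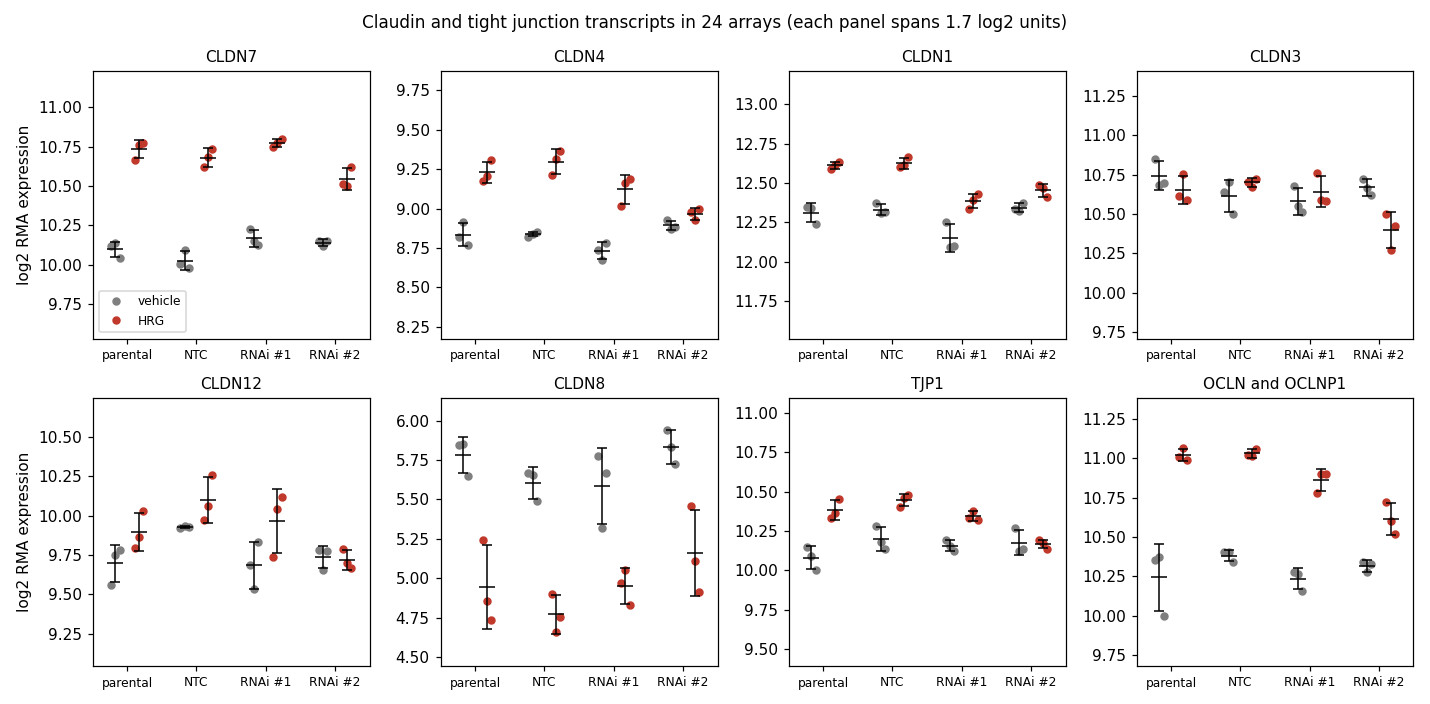
Log2 RMA expression (vertical axes) of the 7 measured members and of the OCLN and OCLNP1 probe set in the 4 kinds of cells (parental, NTC, P-Rex1 RNAi #1 and #2), with vehicle in grey and HRG in red. Each point is 1 array, drawn in order of replicate number, and black bars give the mean and SD of 3 arrays; the red points of CLDN7 lie above the grey ones and those of CLDN8 below them in each kind of cell, and the CLDN4 values with RNAi #2 and HRG stay at 8.92 to 8.99.

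CLDN7 is a claudin of many simple epithelia, where it also lies along the lateral membrane. In parental cells the vehicle arrays read 10.12, 10.14 and 10.05 and the HRG arrays 10.67, 10.76 and 10.77. In NTC cells they read 10.00, 10.09 and 9.98 without HRG and 10.62, 10.68 and 10.74 with it. All 6 HRG arrays of the controls lay above all 6 vehicle arrays. CLDN7 rose by a log2 difference of 0.63 ± 0.05 (SE) in parental cells, which is 1.55-fold (limma, adjusted p = 4.1e-09), and by 0.65 ± 0.05 in NTC cells, which is 1.57-fold (limma, adjusted p = 2.4e-09).

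CLDN8, a claudin best known from the distal nephron, fell. Its vehicle arrays read 5.85, 5.85 and 5.65 in parental cells and 5.67, 5.66 and 5.49 in NTC cells. Its HRG arrays read 5.24, 4.85 and 4.74 in parental cells and 4.90, 4.66 and 4.76 in NTC cells. The groups did not overlap, and the HRG values came close to the 25% quantile of the arrays. CLDN8 fell by 0.84 on the log2 scale (SE 0.13) in parental cells, 1.79-fold lower (limma, adjusted p = 3.5e-05), and fell by 0.83 (SE 0.13) in NTC cells, 1.78-fold lower (limma, adjusted p = 3.4e-05). RMA compresses differences of dim probe sets.

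CLDN4, which tightens the barrier to sodium, was the member with the next largest difference above 0. Vehicle arrays read 8.82, 8.91 and 8.77 in parental cells and 8.82, 8.84 and 8.85 in NTC cells. HRG arrays read 9.18, 9.21 and 9.31 in parental cells and 9.21, 9.32 and 9.36 in NTC cells. The values with HRG were again all above those without it. The log2 difference was 0.40 ± 0.06 (SE) in parental cells (1.32-fold, limma adjusted p = 1.1e-05) and 0.46 ± 0.06 in NTC cells (1.38-fold, limma adjusted p = 1.5e-06), under the 1.5-fold threshold in each.

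CLDN1, a barrier-forming claudin that is indispensable in the skin, read 12.24 to 12.37 over the 6 control arrays without HRG and 12.59 to 12.66 with it. These ranges did not overlap, and the differences were 0.30 ± 0.05 (SE) in parental and 0.29 ± 0.05 in NTC cells (limma, adjusted p = 6.9e-05 and 8.6e-05), both under 1.5-fold.

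For CLDN3 the HRG and vehicle arrays of the controls overlapped. CLDN3, another sealing claudin, which neighbours CLDN4 on chromosome 7, read 10.50 to 10.85 without HRG and 10.59 to 10.75 with it in control cells. Its difference was -0.09 ± 0.07 (SE) in parental and 0.09 ± 0.07 in NTC cells (limma, adjusted p = 0.40 and 0.41). CLDN12, an atypical claudin without the usual scaffold-binding tail, read 9.56 to 9.93 without HRG and 9.80 to 10.26 with it over both kinds of control cells. Within each kind its HRG arrays lay above its vehicle arrays, from 9.80 against up to 9.78 in parental cells and from 9.97 against up to 9.93 in NTC cells. Its difference was 0.20 in parental cells, with a 95% interval of 0.00 to 0.40, and 0.17 in NTC cells, with an interval of -0.02 to 0.37 (limma, adjusted p = 0.13 and 0.19).

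The scaffold gene TJP1 read 10.15, 10.09 and 10.01 in parental cells with vehicle and 10.33, 10.37 and 10.46 with HRG. In NTC cells it read 10.29, 10.18 and 10.13 with vehicle and 10.41, 10.46 and 10.48 with HRG. Every HRG array was above every vehicle array of the controls. The difference was 0.30 ± 0.05 (SE) in parental cells and 0.25 ± 0.05 in NTC cells (limma, adjusted p = 0.00016 and 0.0012), which is 1.23-fold and 1.19-fold.

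The probe set paired with OCLN and OCLNP1 rose in parental cells and in NTC cells. It read 10.36, 10.37 and 10.00 in parental cells with vehicle and 11.01, 11.06 and 10.99 with HRG. It read 10.40, 10.40 and 10.34 in NTC cells with vehicle and 11.02, 11.01 and 11.06 with HRG. The third parental vehicle array lay lower than the other 5 control arrays without HRG. The difference was 0.78 ± 0.08 (SE) in parental cells, 1.71-fold (limma, adjusted p = 4.4e-08), and 0.65 ± 0.08 in NTC cells, 1.57-fold (limma, adjusted p = 5.4e-07). Signal from the gene and from the pseudogene cannot be told apart in it.

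Over parental and NTC cells together, 4 of the 7 members had all 6 HRG arrays above all 6 vehicle arrays, beside 11.7% of all probe sets tested. These were CLDN7, CLDN4, CLDN1 and TJP1, and CLDN8 alone of the members had all 6 below, beside 14.4%.

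**Figure D2:**
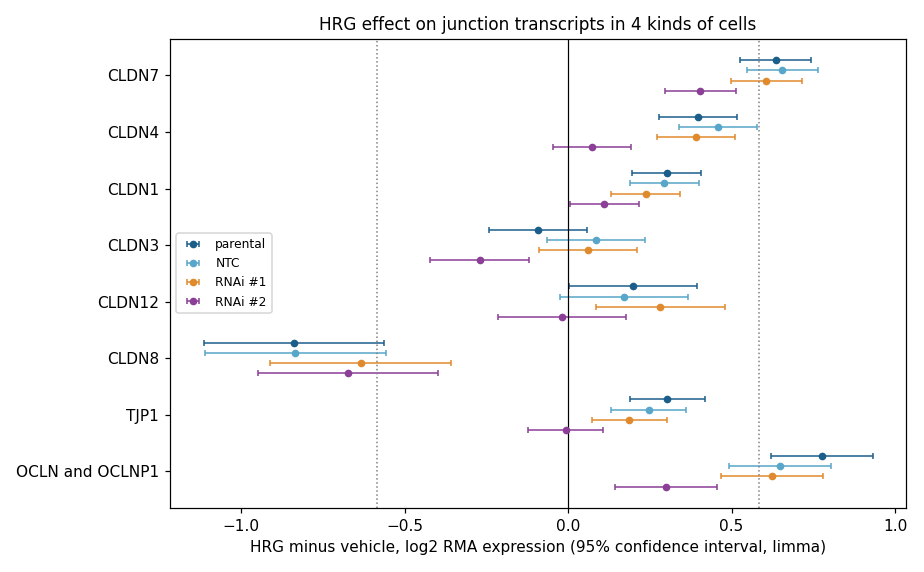
Log2 difference between HRG and vehicle (horizontal axis) for each gene in the 4 kinds of cells, with bars for the 95% confidence interval of limma and dotted lines at a fold change of 1.5 in each direction. With RNAi #2 the points of CLDN4 (0.07) and TJP1 (-0.01) lie next to 0, while CLDN7 (0.40) and CLDN8 (-0.67) keep the direction seen in parental cells.

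In cells with P-Rex1 RNAi #1, CLDN7 rose and CLDN8 fell as they did in the controls. CLDN7 read 10.23, 10.15 and 10.12 with vehicle and 10.75, 10.77 and 10.80 with HRG, a difference of 0.61 ± 0.05 (SE, 1.52-fold, limma adjusted p = 1.7e-08). CLDN8 read 5.77, 5.32 and 5.67 with vehicle and 4.97, 5.05 and 4.83 with HRG, a difference of -0.63 ± 0.13 (SE, limma adjusted p = 0.00097). Neither gene's groups overlapped, nor did those of CLDN4, CLDN1 and TJP1. The share of all probe sets that separate in this way, 3 arrays against 3, was not computed. Of the 7 members, CLDN7 was the 1 called higher, beside 2.52% of all probe sets, and CLDN8 the 1 called lower, beside 1.15%. Both calls lay close to the 1.5-fold threshold: CLDN7 lost its call without the third vehicle array (0.58), and CLDN8 without the first vehicle array (-0.54) or the third HRG array. CLDN4 differed by 0.39 ± 0.06 (SE), CLDN1 by 0.24 ± 0.05, CLDN12 by 0.28 ± 0.09 and TJP1 by 0.19 ± 0.05, all with an adjusted p under 0.05 (limma, 2.1e-05, 0.0012, 0.030 and 0.014) and under 1.5-fold. Without the fold threshold this made 5 of 7 members higher, beside 14.9% of all probe sets, and 1 lower, beside 12.4%. Left-out arrays raised the adjusted p of TJP1 to 0.057 (vehicle 3 or HRG 2) and that of CLDN12 to 0.17 (vehicle 1 or 2, HRG 2 or 3) in limma. The OCLN and OCLNP1 probe set rose by 0.62 ± 0.08 (SE, limma adjusted p = 1.7e-06).

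In cells with P-Rex1 RNAi #2, CLDN4 and TJP1 passed no test of HRG, CLDN7 was higher by less than 1.5-fold and CLDN8 fell. CLDN4 read 8.92, 8.87 and 8.88 with vehicle and 8.98, 8.92 and 8.99 with HRG, a difference of 0.07 ± 0.06 (SE, limma adjusted p = 0.50). TJP1 read 10.27, 10.12 and 10.14 with vehicle and 10.19, 10.17 and 10.14 with HRG, a difference of -0.01 ± 0.05 (SE, limma adjusted p = 0.96). For TJP1 the HRG arrays lay within the range of the vehicle arrays, and for CLDN4 the ranges touched at their edges. CLDN7 read 10.15, 10.12 and 10.15 with vehicle and 10.51, 10.50 and 10.62 with HRG, so the groups were separate, with a difference of 0.40 ± 0.05 (SE, 1.32-fold, limma adjusted p = 1.1e-05). How many of all probe sets separate in this way with duplex #2 was not computed.

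CLDN8 fell with duplex #2 as well. It read 5.94, 5.83 and 5.73 with vehicle and 5.46, 5.11 and 4.92 with HRG, a difference of -0.67 ± 0.13 (SE, 1.59-fold lower, limma adjusted p = 0.0010). The call was lost without the third HRG array (-0.55). CLDN3, which differed little in the other cells, read 10.72, 10.66 and 10.62 with vehicle and 10.50, 10.27 and 10.42 with HRG. Its difference of -0.27 ± 0.07 (SE, limma adjusted p = 0.012) was under 1.5-fold, and its adjusted p reached 0.081 (limma) without an array of this duplex (vehicle 1 or HRG 2). CLDN1 differed by 0.11 ± 0.05 and CLDN12 by -0.02 ± 0.09 (SE, limma adjusted p = 0.16 and 0.95). With duplex #2, 0 of 7 members were called higher, beside 1.07% of all probe sets, and 1 lower, beside 0.656%. Without the fold threshold 1 was higher (8.2% of all probe sets) and 2 were lower (7.64%).

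Whether the HRG effect itself differed from that of the controls was tested by the interaction of HRG and silencing, called at an adjusted p under 0.05 at any size, against the mean effect of parental and NTC cells. With duplex #2 the HRG effect was smaller for 3 of the 7 members, CLDN4, TJP1 and CLDN7, beside 1.85% of all probe sets tested with an interaction below 0 (2.1% had one above 0, among them 0 members). The change was -0.36 ± 0.07 (SE) for CLDN4 (limma, adjusted p = 0.0041). It was -0.28 ± 0.07 for TJP1 (limma, adjusted p = 0.018) and -0.24 ± 0.06 for CLDN7 (limma, adjusted p = 0.035). The OCLN and OCLNP1 probe set differed by -0.41 ± 0.09 (SE, limma adjusted p = 0.011). On the first principal component over all probe sets the duplex #2 arrays with HRG stood apart, at 5.29, 7.20 and 8.97, against 19.8 to 27.5 for the 6 control arrays and 14.5 to 20.0 for the duplex #1 arrays with HRG. The arrays without HRG lay between -19.4 and -16.1 in every kind of cell. The part of this shift in the results with duplex #2 was not tested.

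The CLDN4 interaction kept its call in all 24 fits that left out 1 array. That of TJP1 was lost without the first vehicle array of duplex #2 (adjusted p = 0.068, limma), where the count of members was 1. The CLDN7 interaction lay near the threshold and was lost in 11 of the 24 fits, with a highest adjusted p of 0.11 (limma). These 11 each left out 1 of the following arrays: parental vehicle 3, parental HRG 2 or 3, NTC vehicle 1 or 3, NTC HRG 3, RNAi #2 vehicle 1, 2 or 3, and RNAi #2 HRG 1 or 2. The OCLN and OCLNP1 interaction kept an adjusted p of 0.0041 to 0.041 in all 24 (limma), but gave 0.085 against NTC cells alone.

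For CLDN1, CLDN3 and CLDN12 the change with duplex #2 was -0.19, -0.27 and -0.20, with intervals of -0.32 to -0.06, -0.45 to -0.08 and -0.44 to 0.04 (limma, adjusted p = 0.10, 0.10 and 0.43). With the replicate number as a block CLDN3 passed (limma, adjusted p = 0.042), and with a trended and robust variance model CLDN1 passed (limma, adjusted p = 0.026). For CLDN8 it was 0.16, with an interval of -0.18 to 0.50 (limma, adjusted p = 0.73).

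With duplex #1 the test called 0 of 7 members, beside 0.442% of all probe sets called lower and 0.718% called higher. At an unadjusted p under 0.05 the same comparison held 18.9% of all probe sets. Centring each array on its median moved the share of higher calls among all calls from 61.9% to 93.5% in this comparison, and from 65.4% to 84.8% over both duplexes together. The change was -0.04 for CLDN4, with an interval of -0.18 to 0.11, -0.09 for TJP1, with -0.23 to 0.05, and -0.04 for CLDN7, with -0.17 to 0.09. The difference between the duplexes was tested too and called none of the 7 members (0.0665% of all probe sets called lower). All 7 lay below 0 there, from -0.33 for CLDN3 to -0.04 for CLDN8, and the adjusted p of CLDN4 was 0.24 (limma). A difference between the duplexes in these genes is therefore not shown. Over both duplexes together CLDN4 (-0.20, limma adjusted p = 0.046) and TJP1 (-0.18, limma adjusted p = 0.0497) passed, beside 2.01% of all probe sets called lower and 3.8% called higher, and leaving out any of 23 of the 24 arrays lowered this count of 2 to 1 or 0, as centring lowered it to 0.

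**Figure D3:**
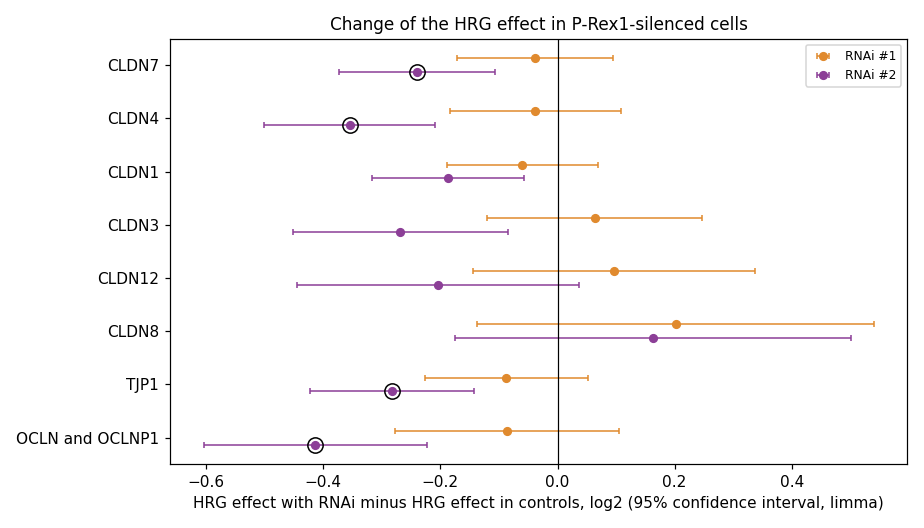
Change of the HRG effect in silenced cells relative to the mean of parental and NTC cells, on the log2 scale (horizontal axis), for RNAi #1 (orange) and RNAi #2 (purple), with 95% confidence intervals of limma; black rings mark an adjusted p under 0.05. The ringed values are CLDN7 (-0.24), CLDN4 (-0.36), TJP1 (-0.28) and the OCLN and OCLNP1 probe set (-0.41), all with RNAi #2.

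Without HRG, no member had an adjusted p under 0.05 in the main fit with either duplex against the mean of parental and NTC cells (over all probe sets, 0.0428% were higher and 0.623% lower with duplex #1, and 0.756% and 2.59% with duplex #2). For CLDN1 with duplex #1 this depended on the fit. Its adjusted p was 0.073 in the main fit, 0.029 to 0.49 with 1 array left out and 0.0020 to 0.27 under the other alternatives (limma). The differences ran from -0.17 for CLDN1 to 0.11 for CLDN7 with duplex #1 and from -0.08 for CLDN12 to 0.14 for CLDN8 with duplex #2. NTC cells without HRG differed from parental cells by -0.18 to 0.23, with adjusted p of 0.80 or more (limma), and 0.00475% of all probe sets passed in each direction.

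With HRG the duplex #2 cells read lower than the HRG-treated controls for most members. The differences were -0.30 ± 0.05 (SE) for CLDN4, -0.28 ± 0.06 for CLDN3, -0.28 ± 0.08 for CLDN12, -0.25 ± 0.05 for TJP1, -0.16 ± 0.04 for CLDN1 and -0.16 ± 0.05 for CLDN7. All 6 had an adjusted p under 0.05 (limma, 0.00019 to 0.022), beside 6.71% of all probe sets lower at any fold, and none reached 1.5-fold (0.893% of all probe sets did). For CLDN12, CLDN1 and CLDN7 the adjusted p passed 0.05 when 1 array was left out, reaching 0.093, 0.073 and 0.090 (limma). The arrays were parental HRG 3, NTC HRG 3 and RNAi #2 HRG 2 or 3 for CLDN12, RNAi #2 HRG 3 for CLDN1, and RNAi #2 HRG 1 or 2 for CLDN7. Under the other alternatives, which include parental or NTC cells alone as the control, their adjusted p reached 0.28, 0.095 and 0.11 (limma). The CLDN12 difference ran there from -0.38 to -0.18. For CLDN4, CLDN3 and TJP1 the adjusted p stayed under 0.05 in all of these fits (limma). In 5 of the 7 members all 3 duplex #2 arrays lay below all 6 control arrays, beside 6.68% of all probe sets. These were CLDN1, CLDN3, CLDN4, CLDN12 and TJP1. CLDN8 read 0.30 higher (limma, adjusted p = 0.087, beside 8.33% of all probe sets higher at any fold). This comparison and the interaction share the HRG arrays and are not independent.

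With HRG and duplex #1, CLDN1 was the member with an adjusted p under 0.05, at -0.23 ± 0.04 (SE, limma adjusted p = 0.0033), beside 1.68% of all probe sets lower at any fold. Its arrays read 12.34, 12.39 and 12.43, all below the control range of 12.59 to 12.66. The share of all probe sets below the controls in this way was not computed for duplex #1. Without HRG the same duplex read 12.25, 12.10 and 12.10 against 12.24 to 12.37 (-0.17 ± 0.04, SE, limma adjusted p = 0.073).

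Among the 8 groups the level of CLDN7 ran from 10.77 ± 0.02 (SD, n = 3) with RNAi #1 and HRG through 10.73 ± 0.06 in parental, 10.68 ± 0.06 in NTC and 10.55 ± 0.07 in RNAi #2 cells with HRG. The groups without HRG followed at 10.17 ± 0.05, 10.14 ± 0.02, 10.10 ± 0.05 and 10.03 ± 0.06 for RNAi #1, RNAi #2, parental and NTC cells (SD, n = 3 each). Neighbours within each set of 4 overlapped, and the sets did not. For CLDN4 the order with HRG was 9.30 ± 0.08 in NTC, 9.23 ± 0.07 in parental, 9.12 ± 0.09 in RNAi #1 and 8.97 ± 0.04 in RNAi #2 cells (SD, n = 3 each). The RNAi #2 group with HRG lay next to its own vehicle group at 8.89 ± 0.03 (SD, n = 3), and to 2 decimals the highest vehicle array equalled the lowest HRG array.

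Other genes of the junction were described from lists of genes chosen by role. Their calls in parental cells stand beside the 2.86% of all probe sets called higher and 2.41% called lower, and those in NTC cells beside 2.64% and 3.37%. Of 17 other claudins 16 were measured, with 0 called higher and 0 lower in parental cells and 0 higher and 1 lower in NTC cells. Their median log2 difference was -0.06, and 4 of them lay under the 25% quantile on every array. CLDN16, a claudin of the kidney, fell in NTC cells (-0.70 ± 0.11, SE, limma adjusted p = 2.9e-05), a call lost without NTC HRG 3 (-0.57), while in parental cells its difference was -0.58, under the fold threshold. Without parental vehicle 2 or 3 or parental HRG 1 it was called there too, with differences of up to -0.62.

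Of 15 other transmembrane junction proteins, 2 rose in parental cells and 0 fell, and in NTC cells 1 rose and 1 fell. NECTIN3, a nectin of adherens junctions, rose by 0.92 ± 0.08 (SE, limma adjusted p = 5.4e-09) and in NTC cells by 0.70 ± 0.08 (limma, adjusted p = 3.1e-07). CXADR, the coxsackie and adenovirus receptor of tight junctions, rose by 0.62 ± 0.08 (limma, adjusted p = 1.7e-06) and in NTC cells differed by 0.53 ± 0.08, under 1.5-fold. Its call in parental cells was lost without parental vehicle 3 or HRG 3, with a smallest difference of 0.56. The HRG effect on NECTIN3 was smaller with duplex #2 (-0.38 ± 0.09, SE, limma adjusted p = 0.025), but not without vehicle 1 or 2 or HRG 1 or 3 of that duplex (limma, adjusted p up to 0.086). This call was also lost with median centring, without the 4 arrays apart on the second principal component and against NTC cells alone (limma, adjusted p up to 0.23). IGSF5, an immunoglobulin-type junction protein also called JAM4, fell by 0.60 (SE 0.11) on the log2 scale in NTC cells (1.51-fold lower, limma adjusted p = 0.00012) and in parental cells differed by -0.49 ± 0.11 (SE, limma adjusted p = 0.0010), under 1.5-fold. The NTC call was lost without NTC vehicle 1 or HRG 3, with a smallest size of -0.50.

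Of 21 cytoplasmic plaque proteins 17 were measured, with 0 called higher and 1 lower in parental and in NTC cells. It was TJP3, or ZO-3, a relative of TJP1, which fell by 0.83 (SE 0.06) on the log2 scale (limma, adjusted p = 1.1e-09) and in NTC cells fell by 0.73 (SE 0.06, limma adjusted p = 6.4e-09). The median of the 17 was -0.24. With duplex #2 the interaction was called above 0 for 2 of the 17, beside 2.1% of all probe sets. MPDZ, a multi-PDZ scaffold, was 1 of the 2 (0.32 ± 0.08, SE, limma adjusted p = 0.034). The MPDZ call was lost in 8 of the 24 fits without 1 array (limma, adjusted p up to 0.11), namely parental vehicle 2, parental HRG 3, NTC vehicle 1, RNAi #2 vehicle 1, 2 or 3 and RNAi #2 HRG 1 or 2. It was also lost with only the groups compared, with median centring and against parental cells alone (limma, adjusted p up to 0.21). The HRG difference of MPDZ was -0.24 in parental and -0.36 in NTC cells, under 1.5-fold.

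Of 15 genes of the apical polarity complexes 0 were called in either direction in parental cells or in NTC cells, with a median of -0.01 in parental cells. Of 12 transcription factors of junction genes 11 were measured and 1 was called, in parental and in NTC cells: GRHL3, a grainyhead-like factor, rose by 0.64 ± 0.09 (SE, limma adjusted p = 1.2e-05) in parental and by 0.74 ± 0.09 in NTC cells (limma, adjusted p = 1.5e-06). The parental call was lost without vehicle 1 (0.57). SNAI1, SNAI2, ZEB1, ZEB2 and TWIST1, whose products repress junction genes, were not called in parental cells, and ZEB1 lay under the 25% quantile on every array.

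**Figure D4:**
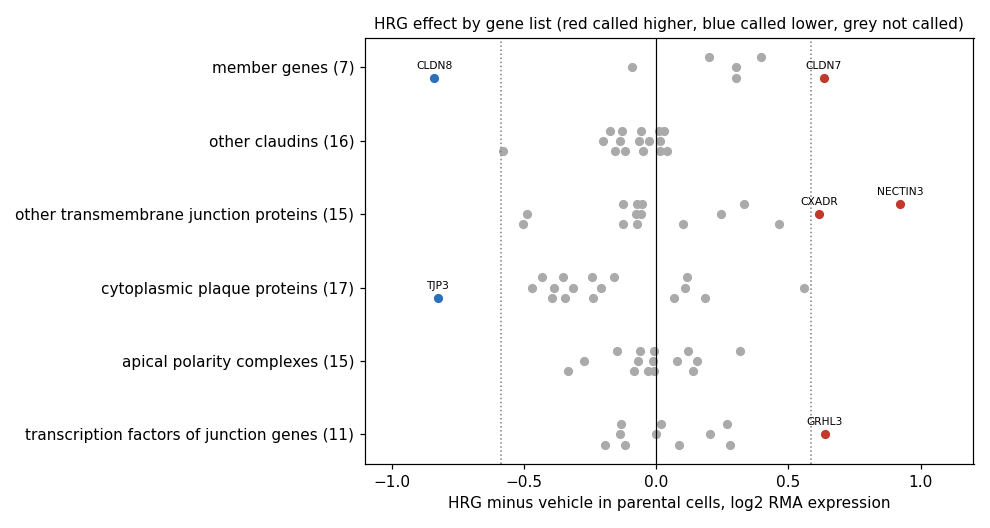
Log2 difference between HRG and vehicle in parental cells (horizontal axis) for the 7 measured members and for 5 lists of related genes, 1 point per gene, with the number measured in brackets and dotted lines at a fold change of 1.5 in each direction. Named points are the called genes, in red where higher and in blue where lower: CLDN7, CLDN8, CXADR, NECTIN3, TJP3 and GRHL3.

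The genes whose 8 group means ran closest to those of CLDN7 were BRD9, LAD1 and RBM3 (Pearson r = 0.997, 0.996 and 0.996). LAD1, ladinin 1, differed by 1.11 with HRG in parental cells and BRD9 by 0.61. For CLDN8 they were RAB29, C2CD5 and CUL4B (r = 0.995, 0.991 and 0.991), with log2 differences of -0.48, -0.29 and -0.49 in parental cells. These are the highest values among all single-symbol probe sets over 8 means that share the HRG contrast, and they are a description without a test.

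Of markers of other cells, CD68, listed among leukocyte markers, rose with HRG in parental cells (0.72 ± 0.15, SE, limma adjusted p = 0.00073) and in NTC cells (0.92 ± 0.15, limma adjusted p = 4.5e-05), 1 of 7 measured markers in each. Over all probe sets 2.86% were called higher in parental and 2.64% in NTC cells. The summed log2 level of the 7 was 35.2 to 36.8 in parental cells with vehicle and 36.1 to 36.8 with HRG, and in NTC cells 35.4 to 35.7 and 36.4 to 37.2. Of the 7, 1 lay under the 25% quantile on every array. Of the 12 luminal markers 3 fell with HRG in parental and in NTC cells (ESR1, PGR and ERBB3), beside 2.41% and 3.37% of all probe sets. The summed level of the 12 was 133.4 to 134.5 in parental cells with vehicle and 131.4 to 131.9 with HRG. With duplex #2 the test called 0 of the 12 lower with HRG, beside 0.656% of all probe sets. The summed level of the 12 was there 133.7 to 134.3 with vehicle and 132.4 to 133.4 with HRG. The interaction with duplex #2 was called above 0 for 2.1% of all probe sets and for 2 of the 12 markers. These were ESR1, the estrogen receptor, read from the brighter of its 2 probe sets (0.67 ± 0.10, SE, limma adjusted p = 0.00029), and PGR, the progesterone receptor (0.51 ± 0.13, SE, limma adjusted p = 0.023). The PGR call was lost without vehicle 3 or HRG 2 of duplex #2 (limma, adjusted p up to 0.080), and against NTC or parental cells alone (limma, adjusted p up to 0.085). The part of these markers in the junction results was not tested.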

How the data were processed

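The deposited values are log2 expression values of 28536 probe sets on Affymetrix Human Gene 1.0 ST arrays, which the authors normalized with RMA in simpleaffy (version not given in the sources used here). The annotation gives 19292 probe sets 1 symbol, 1750 several and 7494 none here. No array pair was identical (0 of all pairs), and columns not used numbered 0. Arrays hold no counts, so the 3 per group limit precision.

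A linear model with 1 mean for each group was fitted to the 24 arrays in R 4.3.3 with limma 3.58.1 and statmod 1.5.0. P-values were adjusted by Benjamini-Hochberg over 21042 probe sets with a symbol. Summaries used Python 3.11.15 with pandas 2.3.3, and plots matplotlib 3.10.9. The test was checked on simulated data. The Rank Products test of the study's methods resamples genes and was not run. A result of 1 further plaque gene is not reported here.

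Named were all members, up to 4 genes per list with the largest fold change among those called in parental cells with the same sign in NTC cells, the 3 nearest genes of each called member, and PREX1. The CLDN16, IGSF5, MPDZ, ESR1 and PGR values were chosen after they were seen. The members and lists were chosen with earlier results of these data known. Alternatives comprised the replicate block, filters, variance models, array weights, median centring, other thresholds and controls, and each array left out in turn.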

Additional observations from a re-analysis of the deposited data

Results flagged for a closer look

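Every interaction of HRG and silencing was checked for the members and for the OCLN and OCLNP1 probe set. For NECTIN3, CXADR, TJP3, GRHL3, CLDN16, MPDZ, CD68, IGSF5, ESR1 and PGR only the interaction with RNAi #2 was checked. Of these, 10 results were called in limma. Other genes named above, PREX1 among them, were left out of this count. With P-Rex1 RNAi #2 the difference was -0.36 for CLDN4 (adjusted p = 0.0041), -0.28 for TJP1 (adjusted p = 0.018), -0.24 for CLDN7 (adjusted p = 0.035) and -0.41 for the probe set paired with OCLN and OCLNP1 (adjusted p = 0.011), on the log2 scale in limma. Over both duplexes it was -0.20 for CLDN4 (adjusted p = 0.046) and -0.18 for TJP1 (adjusted p = 0.0497) in limma. With RNAi #1 alone the values of CLDN4 and TJP1 were -0.04 and -0.09 (limma, adjusted p = 0.79 and 0.48). Of the genes that are no members, the interaction with RNAi #2 was -0.38 for NECTIN3, 0.32 for MPDZ, 0.67 for ESR1 and 0.51 for PGR (limma, adjusted p = 0.025, 0.034, 0.00029 and 0.023).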

How the results depend on the processing

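No result changed sign on a called value under any alternative. Without the fold threshold the members called were 4 higher in parental cells, 4 higher in NTC cells, 5 higher with RNAi #1, 1 higher and 2 lower with RNAi #2, and with HRG against controls 1 lower for RNAi #1 and 6 lower for RNAi #2. At a threshold of 2-fold every count of members called for HRG was 0, in parental, NTC, RNAi #1 and RNAi #2 cells. With arrays centred on their medians the counts were 0 lower with RNAi #1, 1 for the interaction with RNAi #2 and 0 for both duplexes together. Without the 4 arrays apart on the second principal component (parental vehicle 3, NTC HRG 3, RNAi #1 vehicle 2 and RNAi #2 HRG 3) they were 0 lower with RNAi #2 and 0 for both duplexes together. The interaction with RNAi #2 counted 1 against NTC cells alone. Both duplexes together counted 0 against NTC cells or parental cells alone and over all probe sets, and 1 with array weights. Leaving out 1 array gave 0 to 1 member higher and 0 to 1 lower with RNAi #1, 0 to 1 lower with RNAi #2, 1 to 3 for the interaction with RNAi #2, and 0 to 2 for both duplexes together. Between HRG and vehicle, the deviations of same-numbered arrays correlated at r of 0.12 to 0.25 in parental and 0.22 to 0.39 in RNAi #2 cells, but at 0.04 for replicate 2 of NTC and -0.05 for replicate 2 of RNAi #1 cells, and over all 28 pairs of groups at 0.12 to 0.56 for replicate 1 and -0.29 to 0.41 for replicate 2. Replicates 1 and 3 gave 0.14 and 0.24 in NTC and 0.25 and 0.19 in RNAi #1 cells. Over the 28 pairs of groups replicate 3 gave 0.001 to 0.50. With such mixed values the numbers were not taken as pairs in the main fit, and the replicate block was run as an alternative. With the replicate block the counts for HRG stayed at 1 higher and 1 lower in parental cells, and the interaction with RNAi #2 counted 4 members instead of 3, adding CLDN3 (adjusted p = 0.042, limma). With a trended and robust variance model CLDN1 passed the interaction with RNAi #2 (adjusted p = 0.026, limma). With RNAi #2 the CLDN7 interaction was also lost with only the groups compared, with median centring and against NTC or parental cells alone (adjusted p up to 0.12, limma), and that of TJP1 with median centring, without the 4 arrays and against NTC cells alone (adjusted p up to 0.094, limma). Among values of single genes 4422 kept their side of the threshold, 133 lost a call and 49 gained it. Values that were not called could change sign among the 4422. The CLDN4 interaction with RNAi #1, for example, was -0.04 in the main fit and up to 0.05 under an alternative. The cause of these differences was not tested. Dim probe sets such as CLDN8, near the 25% quantile, have compressed differences.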
